A study of Mus musculus with 96 samples.

Results

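miR-150 and miR-342 are microRNAs (miRNAs) known from blood and lymphoid tissue, and both were followed here in 4 cell types of the mouse heart over 6 days around an infarction. The members are the 4 mature arms listed as mmu-miR-150-5p, mmu-miR-150-3p, mmu-miR-342-5p and mmu-miR-342-3p, written below without the species prefix, picked by name from 1978 mature miRNAs counted in each library, and all 4 had counts. Male C57Bl/6J mice aged 12 to 14 weeks, with no transgene, received a permanent ligation of a coronary artery (AMI), and their hearts were taken at D1, D3, D7, D14 and D28, while D0 mice had no infarction and served as controls. From each heart, cardiomyocytes (CMs) were spun down, hematopoietic cells (HCs) were bound with antibody to CD45, endothelial cells (ECs) were taken from the rest with antibody to CD144, and fibroblasts (FBs), mostly DDR2-positive, were those that adhered to a dish. Each library was made from RNA of 3 mice, or 2 where a sample was missing, and each of the 24 groups of cell type and day has 4 libraries, 96 in all. The 4 cell types of a day came from the same animals. RNA input was 500 ng with 14 PCR cycles for CMs, 50 ng with 16 for ECs, and 150 ng with 15 for FBs and HCs, so these settings cannot be told apart from the cell type. The study describes the libraries of a group as separate pools of RNA samples, and calls them biological and in places technical replicates. The p-values below thus measure spread between pools, not between single mice.

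A miRNA is cut from a hairpin RNA, which can release one mature strand from its 5′ side (5p) and one from its 3′ side (3p), and one of these arms usually prevails. The mature strand guides an Argonaute protein to messenger RNAs, mainly through its seed, bases 2 to 8. miR-150 is abundant in mature B, T and NK lymphocytes, where it restrains the transcription factor Myb, and miR-342 is made from an intron of Evl, which codes for a regulator of actin filaments, and is also well known in lymphoid and myeloid cells. miR-142a is made in all leukocytes, miR-223 in myeloid cells and miR-126a in endothelium.

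The mature sequences of 3 of the 4 members, and the miR-342 hairpin, are shown so that the arms counted below can be told apart; they are those of RefSeq on GRCm38.p6, read 5′ to 3′. Capitals mark the seed in the mature strands. miR-342-5p and miR-342-3p lie at chr12:108658638-108658659 and chr12:108658680-108658702, and miR-150-3p at chr7:45121798-45121819, all on the plus strand.
miR-150-3p: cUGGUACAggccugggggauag
miR-342-5p: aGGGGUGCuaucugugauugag
miR-342-3p: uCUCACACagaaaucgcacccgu
In the mir-342 hairpin, which spans 99 bases at chr12:108658620-108658718, capitals mark the 5p arm and then the 3p arm.
mir-342: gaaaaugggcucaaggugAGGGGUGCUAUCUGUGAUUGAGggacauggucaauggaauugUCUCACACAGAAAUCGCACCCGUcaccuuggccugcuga
None of the 3 seeds was shared with another of the 1679 mature names that had a sequence. In the annotation of the same build, Mir342 lies on the strand of Evl, within the span of 5 of its transcripts and in an exon of none of them, so it is intronic. Mir150 occupies chr7:45121757-45121821 on the plus strand and overlaps no other gene.

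Depth set what could be read. Libraries held 525651 to 29037628 mature counts in ECs, 3327351 to 24279105 in CMs, 2217588 to 65588543 in FBs and 18286 to 29504666 in HCs. The lowest of these, HC D0 replicate 3, stands apart with 18286 counts, 41 of them miR-150-5p, 4 miR-342-3p, 1 miR-342-5p and 0 miR-150-3p, and the values that it moves most are given without it too. Where it has 0 counts, 3 counts of 18286 would be the upper limit, and this limit, like the intervals below, covers counting error only. The study left out 1 library each of EC D28, HC D0 and FB D0, without naming it, and all libraries were kept here.

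miR-150-5p was as prominent in ECs as in HCs, and miR-342-3p was second in ECs. Averaged over the 24 libraries of a cell type, miR-150-5p was at 2586 counts per 1000000 mature counts (CPM) in HCs and 2544 in ECs, which is 98.4% of the HC level, against 138 in FBs (5.35%) and 85.2 in CMs (3.29%). miR-342-3p was at 478 CPM in HCs and 287 in ECs (60.1%), against 50.8 in FBs (10.6%) and 22.9 in CMs (4.80%). The minor arms had the same order of cell types: miR-342-5p was at 31.7 CPM in HCs, 16.4 in ECs, 4.48 in FBs and 0.781 in CMs. miR-150-3p was at 9.56 CPM in HCs, 8.62 in ECs, 0.526 in FBs and 0.17 in CMs. By mean level miR-150-5p ranked 51 of the 1182 miRNAs detected in ECs and 57 of 1435 in HCs, and miR-342-3p ranked 105 and 103.

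The 4 arms were thus not confined to the HC isolates, so the name of lymphocyte miRNAs does not mark them out in these data. HCs were the cells bound with antibody to CD45, and lymphocytes were not isolated apart from other leukocytes. The leukocyte miRNAs were nearly missing from ECs: miR-142a-3p was at 12.2 CPM there, 0.156% of its 7782 CPM in HCs, and miR-223-3p was at 0.166% of its HC level. The summed level of both miR-142a arms ranged from 5.47 to 29.2 CPM over the EC libraries and from 3902 to 20039 over the HC libraries, with no overlap, and that of both miR-223 arms from 0.475 to 7.72 and from 1023 to 5155. The 8 other miRNAs linked to lymphocytes ran in ECs from 13.9% of the HC level for miR-146a-5p, which is induced by inflammatory signals and is also expressed in endothelium, to 124.8% for miR-92a-3p. Between these lay miR-19b-3p, miR-20a-5p and miR-17-5p at 20.0% to 23.1%, miR-181a-5p at 40.0%, miR-155-5p at 45.6% and miR-181b-5p at 63.9%. In the other direction, endothelial miR-126a-3p was in HCs at 18.1% of its EC level, and cardiomyocyte miR-1a-3p was at 61450 CPM in HCs and 72906 in ECs, against 505167 in CMs. In FBs and CMs, miR-126a-3p was at 14.0% and 8.14% of its EC level, where miR-150-5p was at 5.44% and 3.35% and miR-342-3p at 17.7% and 7.99% of theirs. In all, the HC isolates carried miRNAs of endothelium and muscle, and the EC isolates carried those of muscle. Their part in the levels of the 4 arms in HCs and ECs was not tested. In such bulk samples, fewer cells of a type and less RNA per cell cannot be told apart.

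**Figure D1:**
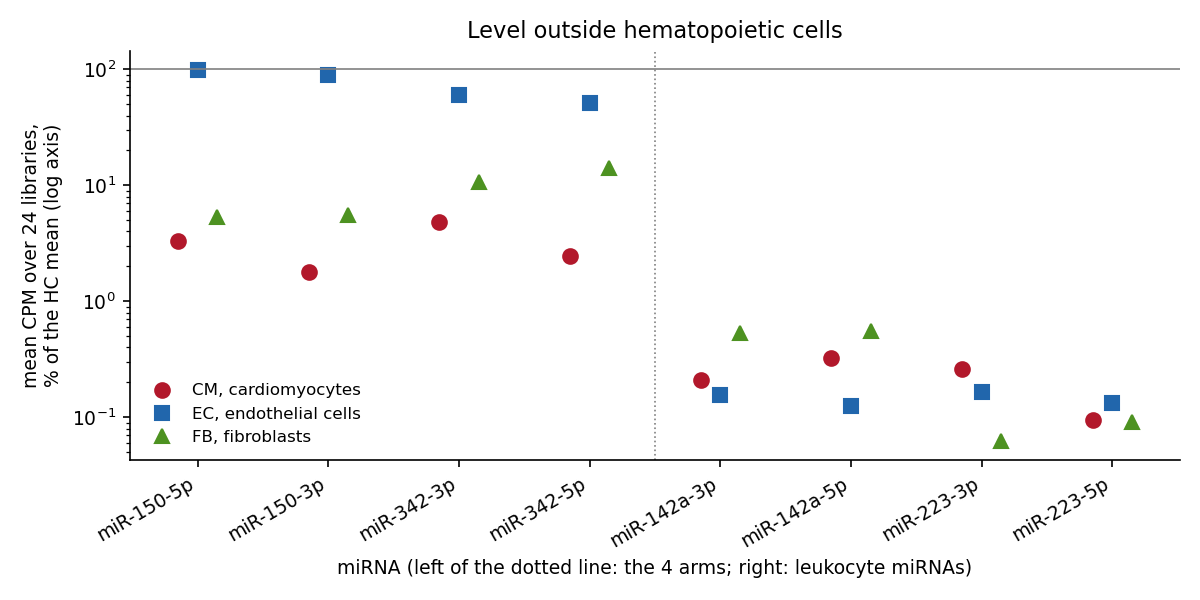
Mean level over the 24 libraries of CMs, ECs and FBs as a percentage of the HC mean (vertical log axis) for the 4 arms, left of the dotted line, and for the arms of miR-142a and miR-223, right of it; the grey line marks the HC level. The EC squares of the 4 arms lie between 51.6% and 98.4%, while miR-142a-3p in ECs is at 0.156%.

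Day by day, the CPM of miR-150-5p in HCs and ECs overlapped at all 6 days. At D0 the 4 HC libraries had 4024, 2242, 2242 and 2425 CPM, and the 4 EC libraries had 2195, 2584, 2376 and 2331. At D28 they had 1896, 1776, 2121 and 2664 in HCs and 3105, 3311, 2317 and 970 in ECs. Below these, FBs at 102 to 198 CPM lay above CMs at 13.7 to 73.6 at D0, but the order was turned at D7, when CMs had 119 to 264 CPM and FBs 72.8 to 117, and the 2 overlapped at D14 and D28.

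miR-342-3p, unlike miR-150-5p, was higher in HCs than in ECs without overlap in the later days. In HCs it had 440, 298, 219 and 370 CPM at D0, against 349, 303, 301 and 303 in ECs, so the groups overlapped, as they did at D1 and D3. At D7 HCs had 821, 614, 513 and 530 CPM and ECs 298, 355, 205 and 278, and at D14 HCs had 511 to 636 and ECs 286 to 313. At D28 HCs had 648, 623, 503 and 589 CPM and ECs 192, 160, 88.0 and 76.9. All HC libraries were thus above all EC libraries at D7, D14 and D28, as were 37.9%, 36.8% and 41.4% of the 712 miRNAs tested over all libraries, so a gap of this kind was common. The log2 ratio of miR-150-5p to miR-342-3p was also compared between ECs and HCs by exact permutation tests. It did not pass at D7 (adjusted p = 0.229), D14 or D28 (adjusted p = 0.0735 each). miR-342-5p was higher in HCs without overlap at D0, D1, D3 and D7, where 15.4%, 40.9%, 42.6% and 37.9% of miRNAs were. miR-150-3p was higher in HCs without overlap at D7, when it had 8.20 to 30.8 CPM against 4.29 to 7.28, and lower at D28, with 9.24 to 11.3 CPM against 14.2 to 20.9, a direction seen in 8.85% of miRNAs.

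**Figure D2:**
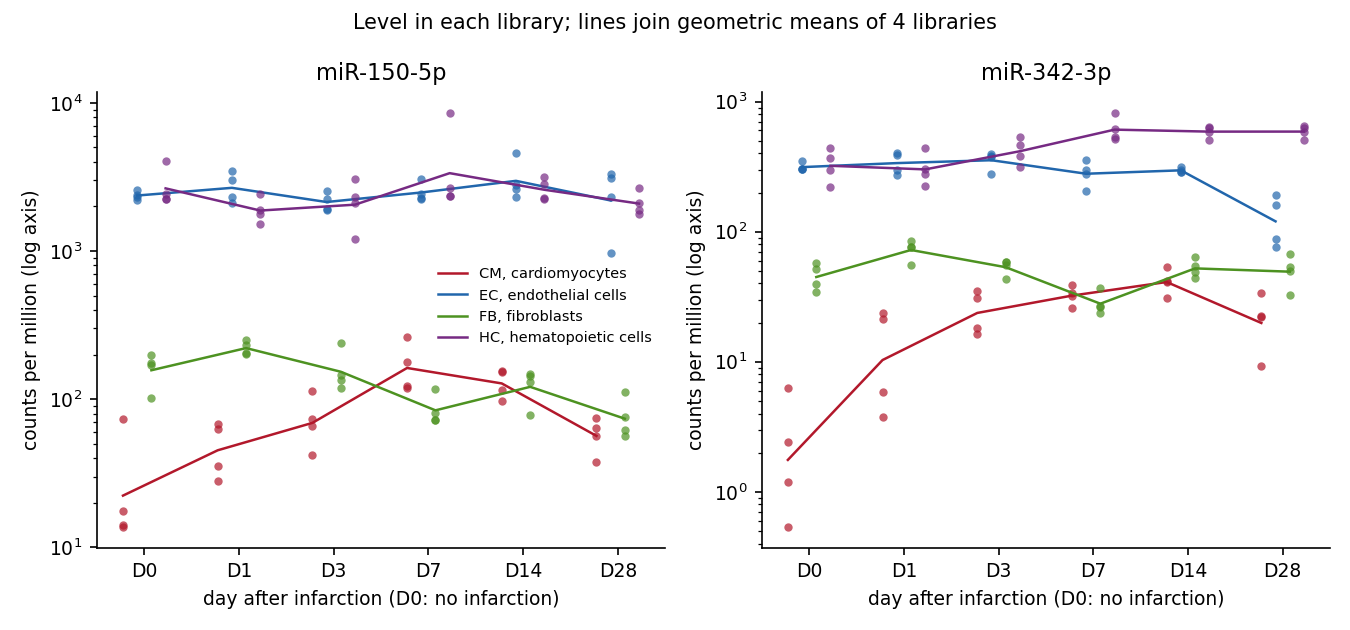
Level of the prevailing arms, miR-150-5p (left) and miR-342-3p (right), in CPM on a log axis, for each library by day and cell type; lines join the geometric means of 4 libraries. HC and EC points of miR-150-5p mix at every day, whereas for miR-342-3p the HC points, at 503 to 648 at D28, lie above the EC points, at 76.9 to 192.

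The same contrast was tested with edgeR's quasi-likelihood test over all 96 libraries, as a mean over the 6 days, after scaling that centres the bulk of the miRNAs (TMM), with Benjamini-Hochberg adjusted p-values under 0.05 called. All 4 arms were higher in HCs than in CMs, by log2 fold changes of 2.93 for miR-150-5p, 4.01 for miR-150-3p, 3.43 for miR-342-5p and 2.58 for miR-342-3p, where 41.9% of miRNAs were called higher. In CMs miR-150-3p had 0 to 8 counts a library and miR-342-5p 0 to 41, so the sizes for these minor arms are uncertain. All 4 were higher in HCs than in FBs as well, by 3.65, 3.81, 2.16 and 2.63, where 47.6% were. Against ECs, where 40.0% were called higher and 37.6% lower, miR-150-5p was lower in HCs, by a log2 fold change of -0.76 (SE 0.14, adjusted p = 6.02e-07). miR-342-5p was higher, by 0.33 (SE 0.15, adjusted p = 0.0324), and miR-342-3p, at 0.01 (SE 0.12, adjusted p = 0.974), and miR-150-3p, at -0.31 (SE 0.16, adjusted p = 0.0684), did not pass. The call of miR-342-5p was lost without EC D0 replicate 1, EC D14 replicate 3 or EC D28 replicate 2 (adjusted p = 0.0542 to 0.0567), and miR-150-3p passed without EC D1 replicate 1 or EC D14 replicate 2 or 3 (adjusted p = 0.0389 to 0.0481). Without HC D0 replicate 3 the values against ECs were -0.55 for miR-150-5p (adjusted p = 0.000113), 0.50 for miR-342-5p (adjusted p = 0.00145), 0.21 for miR-342-3p (adjusted p = 0.0923) and -0.13 for miR-150-3p (adjusted p = 0.461). Thus 0 of the 4 were at least 1 log2 unit higher in HCs than in each other cell type, where 17.8% of miRNAs were. The scaling matters here: on library size alone the median miRNA was higher in HCs than in ECs by 0.81 on the log2 scale, and by 0.03 after TMM scaling, and on library size the difference of miR-150-5p was -0.01, miR-150-3p turned to 0.43 and miR-342-3p rose to 0.77. At D0 alone none of the 4 differed between HCs and ECs by this edgeR test, with log2 fold changes of -0.48, 0.13, 0.64 and -0.47 for miR-150-5p, miR-150-3p, miR-342-5p and miR-342-3p and adjusted p-values of 0.253, 0.816, 0.157 and 0.227, where 18.4% of miRNAs were called higher in HCs and 25.3% lower.

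The question of what infarction changed was asked within each cell type, each day against D0, with the same edgeR test over the 24 libraries of that cell type.

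ECs were stable in miR-150-5p and shifted in the 3 other arms at D28. No miRNA was called at D1 in ECs (0 of 421), and none of the 4 arms was called then or at D3, D7 or D14, when 17.6%, 22.6% and 14.5% of miRNAs were. At D28, when 47% of the miRNAs tested in ECs were called, 3 of the 4 arms were. miR-342-3p fell by 1.26 on the log2 scale (SE 0.25, adjusted p = 0.000175), from 301 to 349 CPM at D0 to 76.9 to 192. Its partner from the same hairpin went the other way: miR-342-5p had 6.64, 14.4, 11.5 and 11.9 CPM at D0 and 43.8, 16.4, 45.6 and 36.6 at D28, higher by 1.66 (SE 0.37, adjusted p = 0.000604). miR-150-3p had 6.64, 6.54, 6.16 and 6.17 CPM at D0 and 20.9, 14.2, 17.3 and 15.9 at D28, higher by 1.47 (SE 0.42, adjusted p = 0.00531). For each of these 3 arms the D28 libraries lay wholly outside the D0 range, but the share of all EC miRNAs with such a gap was not counted. The prevailing arm of miR-150 differed by 0.04 (SE 0.25, adjusted p = 0.907), with D28 libraries on both sides of the D0 range. Over the 6 days the F test gave adjusted p = 0.513 for miR-150-5p, 0.000162 for miR-150-3p, 4.37e-05 for miR-342-5p and 0.000221 for miR-342-3p, where 58.2% of miRNAs passed. These 3 calls at D28 held under every alternative run.

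Depth moved with that day. EC D28 libraries had 525651 to 3902765 mature counts and 66.0% to 77.5% of their reads matched no mature sequence, against 2105446 to 20465553 counts and 48.5% to 67.3% at D0. The falls and rises rest on 56 to 300 counts of miR-342-3p, 23 to 143 of miR-342-5p and 11 to 62 of miR-150-3p in a D28 library, and the part of depth was not tested. Of 8 other miRNAs linked to lymphocytes, 5 were called lower and 1 higher in ECs at D28, with a median log2 fold change of -0.75 against 0.07 over all miRNAs. The 5 were miR-155-5p, miR-181a-5p, miR-17-5p, miR-20a-5p and miR-19b-3p, of which the last 3 come from the miR-17-92 cluster of proliferating cells. miR-181b-5p, miR-146a-5p and miR-92a-3p, the last also of that cluster, were not called lower. miR-142a-3p differed by -0.52 (SE 0.43, adjusted p = 0.325). Of the other marker lists, all 4 cardiomyocyte miRNAs were lower that day (median -2.01), 2 of 3 fibroblast miRNAs were higher (median 1.21), 1 of 2 endothelial arms was lower (median -0.87) and 1 of 4 erythroid miRNAs was higher, and their part in the changes of the 3 arms was not tested.

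In FBs the arms were lower on 6 of 20 tests and higher on none. miR-150-5p had 176, 198, 102 and 171 CPM at D0 and 72.8, 117, 80.6 and 72.9 at D7, a log2 fold change of -1.13 (SE 0.25, adjusted p = 0.000655), and the 2 groups overlapped by 1 library each. miR-342-3p fell at D7 by 0.92 (SE 0.22, adjusted p = 0.00119), from 34.3 to 57.5 CPM at D0 to 23.5 to 36.8. miR-150-3p fell by 1.78 at D7 (adjusted p = 0.0124), when 45.6% of the 563 miRNAs tested in FBs were called and 21.1% were lower. At D3, with 43% called, miR-342-5p fell by 1.12 (adjusted p = 0.00612) and miR-150-3p by 2.61 (adjusted p = 0.000754). The latter rests on 4 to 17 counts a library at D0 and 0 to 8 at D3. Some markers of other cells were lower in FBs at D7 as well: 1 of the 2 miR-142a arms was called lower (median log2 fold change -1.08), as were 2 of 4 erythroid miRNAs (median -1.28), 1 of 4 cardiomyocyte miRNAs (median -0.67) and 4 of the 8 lymphocyte-linked miRNAs (median -0.67, with 1 higher), against a median of -0.07 over all miRNAs. Of the fibroblast list 1 of 3 was called lower too (median 0.11). Neither the 2 miR-126a arms (median -0.44) nor the 2 miR-223 arms (median -0.27) had a call. The part of these shifts in the falls of the members was not tested. At D28, when only 6.75% of miRNAs were called and 1.95% lower, miR-150-5p fell by 0.97 (SE 0.25, adjusted p = 0.0172), from 102 to 198 CPM to 56.4 to 111. That call was lost when any of 4 libraries was left out, with adjusted p-values of 0.0513 to 0.112 without D0 replicate 2 or D28 replicate 1, 2 or 3, and the D7 call of miR-150-3p was lost without D7 replicate 3 (adjusted p = 0.101). Nothing was called at D1 or D14, where 7.99% and 24.7% of miRNAs were, and over the 6 days 3 of the 4 arms passed, miR-342-5p being the exception (adjusted p = 0.062), with a background of 68.2%.

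**Figure D3:**
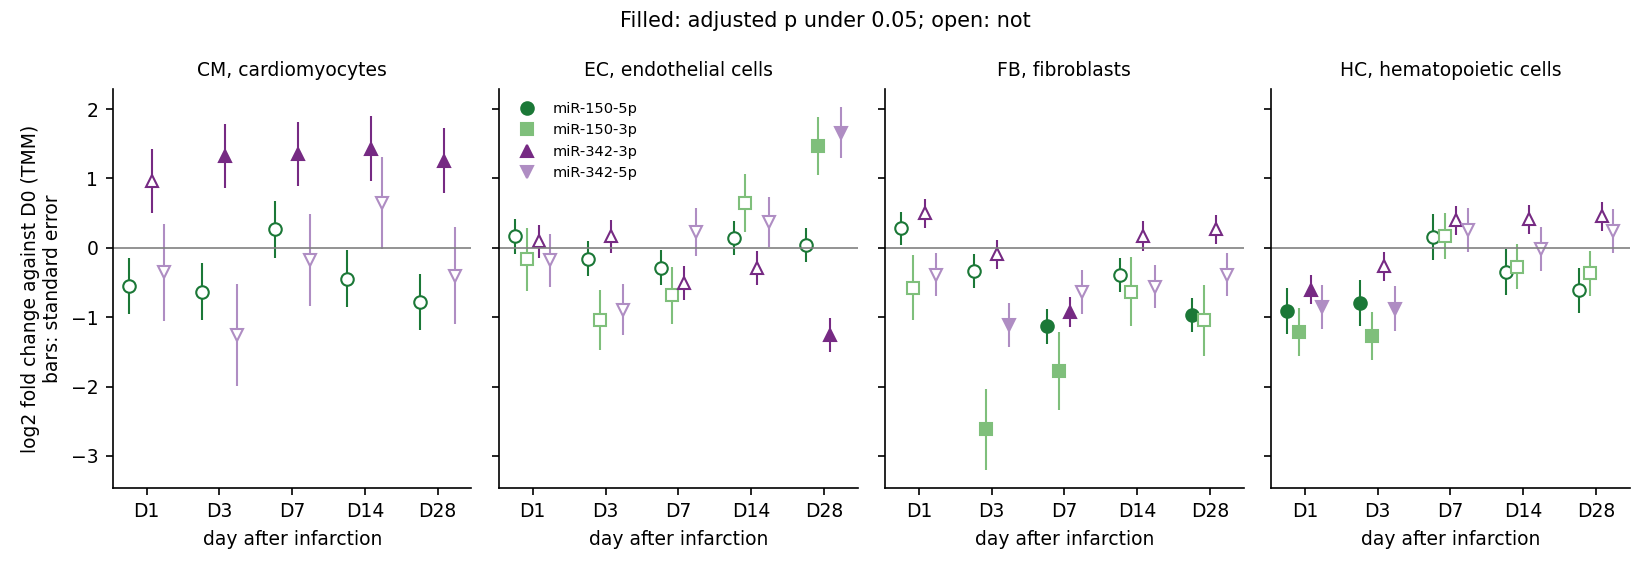
Log2 fold change against D0 after TMM scaling (vertical axis, bars are the standard error) for the tested arms in CMs, ECs, FBs and HCs; filled symbols passed an adjusted p of 0.05. The filled symbols of ECs all lie at D28 and include both directions, those of FBs and HCs all lie below 0, and those of CMs are all miR-342-3p.

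CMs held little of either miRNA at D0, and after TMM scaling miR-342-3p was the only arm called higher. It had 6.28, 2.41, 1.18 and 0.535 CPM at D0, from 7 to 66 counts, and 40.7, 42.0, 31.0 and 53.5 CPM at D14. Every D14 library lay above every D0 library, but the share of all CM miRNAs with such a gap was not counted. The fit put the rise at D3, D7, D14 and D28 at log2 fold changes of 1.32 (adjusted p = 0.0192), 1.35 (adjusted p = 0.0129), 1.43 (SE 0.47, adjusted p = 0.00961) and 1.26 (adjusted p = 0.0249), where 55.2%, 69%, 67.1% and 54.3% of the 484 miRNAs tested in CMs were called, and gave 0.96 at D1 (adjusted p = 0.125), where 25% were. The D3 call was lost without D0 replicate 3 or 4 or D3 replicate 3, with adjusted p-values of 0.0568 to 0.0669. The D28 call was lost without D0 replicate 3 or 4 or D28 replicate 3, with 0.0698 to 0.0844. The F test over the 6 days did not pass for miR-342-3p (adjusted p = 0.0908), where 73.8% of miRNAs did. miR-150-5p had 73.6, 17.6, 14.1 and 13.7 CPM at D0 and 155, 116, 97.4 and 152 at D14, a gap without overlap, yet its log2 fold change after TMM scaling was -0.44 (SE 0.41, adjusted p = 0.333), and 0.41 without D0 replicate 1 (adjusted p = 0.226). At D7 it had 119 to 264 CPM, its highest day, and a log2 fold change of 0.27 (adjusted p = 0.577), which was called at 1.13 without D0 replicate 1 (adjusted p = 0.00258). On library size alone the median of all miRNAs moved by 1.42 to 2.99 on the log2 scale between D0 and the later days, against 0.20 to 0.44 after TMM scaling. On that scale miR-150-5p was higher at D3 by 1.31, at D7 by 2.53 and at D14 by 2.13, so its direction in CMs depends on the scaling. Markers of other cell types moved as well. miR-142a-3p went from 0.535 to 1.62 CPM at D0 to 12.9 to 29.8 at D14 in CMs, and both miR-142a arms were called higher then. The 3 fibroblast miRNAs of the marker list (both miR-199a arms and miR-214-3p) were all called higher from D3 on, and their summed level went from 36.5 to 114 CPM at D0 to 1358 to 2188 at D14. That of both miR-126a arms went from 4423 to 9789 CPM to 19277 to 27651, with 1 arm called higher and 1 lower after TMM scaling. The 4 cardiomyocyte miRNAs summed to 603382 to 709040 CPM at D0 and 311247 to 419381 at D14. Most of that sum was miR-1a-3p, at means of 657447 CPM at D0 and 353118 at D14. After TMM scaling 3 of the 4 cardiomyocyte miRNAs were called higher at D14 and 1 lower (median log2 fold change 1.12). The part of these shifts in the rise of miR-342-3p was not tested. miR-342-5p, at 0 to 41 counts a library, was not called at any day, and miR-150-3p, at 0 to 8 counts, was too low to be tested in CMs.

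In HCs, all 7 calls were falls, at D1 and D3. At D1 miR-150-5p had 1778, 2410, 1529 and 1884 CPM against 2242 to 4024 at D0, a log2 fold change of -0.91 (SE 0.33, adjusted p = 0.0235), and at D3 it was -0.80 (SE 0.33, adjusted p = 0.0405). miR-150-3p fell by 1.21 at D1 (SE 0.34, adjusted p = 0.00465) and by 1.27 at D3 (SE 0.34, adjusted p = 0.00264). miR-342-5p fell by 0.85 and 0.88 (adjusted p = 0.0276 and 0.0207), and miR-342-3p by 0.61 at D1 (SE 0.21, adjusted p = 0.0169) but was at -0.27 at D3 (adjusted p = 0.284). The background was 54.3% of 608 miRNAs at D1, with 28.9% lower, and 59% at D3, with 28.1% lower. At D7, D14 and D28, where 49.5%, 28.1% and 24% were called, none of the 4 was, and all 4 passed over the 6 days, as did 73.5%.

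These falls depend on scaling. On library size alone none of the 7 passed, with adjusted p-values from 0.0542 to 0.439, and the median miRNA rose by 0.34 to 0.59 on the log2 scale. Instead miR-342-3p was then higher at D7, D14 and D28, by 0.79, 0.72 and 0.73. With DESeq2 only miR-150-3p kept both falls (adjusted p = 0.0377 and 0.0415), and miR-342-3p was higher at D7 by 0.62 (adjusted p = 0.0166). The number of calls was 3 to 7 when 1 library was left out. It was 4 without D0 replicate 1 or D1 replicate 3 and 3 without D0 replicate 4 or D1 replicate 4. Of these 24 fits, miR-150-5p lost its call in 7 at D1 and in 11 at D3. miR-342-5p lost it in 8 at D1 and 5 at D3, miR-342-3p in 8 at D1, and miR-150-3p in 0 at either day. miR-342-3p was called higher in 4 fits each at D7, D14 and D28, so calls in such fits were not all falls. Without D0 replicate 3 the D1 value of miR-150-5p was -1.04 (adjusted p = 0.0134).

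Levels of cell type markers in the HC isolates moved over the same days, whether by cell number or by RNA per cell. miR-142a-3p had 2461 to 4160 CPM at D0 and 10928 to 14879 at D1, and miR-126a-3p went from 52937 to 90242 CPM at D0 to 13607 to 21032 at D3. Both miR-142a arms were called higher at D1, D3 and D7, and the part of either shift in the falls was not tested. Of the 8 other lymphocyte-linked miRNAs, 3 rose (miR-17-5p, miR-20a-5p and miR-19b-3p) and 2 fell (miR-146a-5p and miR-181a-5p) at D1, with a median of -0.01 against -0.08 over all miRNAs, so that list had no common direction.

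Ratios of counts within a library need no scaling between libraries. Set against miR-142a-3p, miR-150-5p in HCs had a mean log2 ratio of -0.29 ± 0.23 (SD, n = 4) in the control group. After infarction the means were -2.69 ± 0.30 (D1), -2.38 ± 0.36 (D3), -1.43 ± 0.90 (D7), -1.11 ± 0.46 (D14) and -1.20 ± 0.25 (D28). miR-342-3p went from -3.29 ± 0.08 at D0 to -5.32 ± 0.46 at D1 and back to -3.25 ± 0.47 at D14 and -3.03 ± 0.37 at D28. The miR-342-3p libraries of D14 and D28 thus overlapped those of D0, whereas all miR-150-5p values at D14 and D28 stayed below D0. At D14 that gap was narrow, with the highest value at -0.52 and the lowest of D0 at -0.50. Both ratios share miR-142a-3p, so they differ by the ratio of miR-150-5p to miR-342-3p. In HCs that ratio did not pass over the 6 days (permutation test, adjusted p = 0.0696). A permutation test of the 6 days gave adjusted p = 8e-05 for miR-150-5p and 0.00016 for miR-342-3p, over the 4 cell types, and without HC D0 replicate 3 unadjusted values of 0.00013 and 6e-05. The single-day exact permutation tests of 4 against 4 libraries cannot go below 0.0286, and after adjustment over 20 comparisons none passed. At D1, 62.3% of all miRNAs fell without overlap relative to miR-142a-3p in HCs, and 14.9% at D14 and 13.2% at D28 did, so the early drop was shared widely. Outside HCs the ratio of both miRNAs to miR-142a-3p was higher than in HCs in all 18 comparisons (exact permutation test, adjusted p = 0.0286 each, without overlap), but over the 6 days so was that of 98.5% of all miRNAs in CMs, 94.6% in ECs and 90.9% in FBs. The sizes differed between cell types: for miR-150-5p the D0 ratio was 8.01 ± 0.81 in ECs, 4.66 ± 0.65 in CMs and 1.80 ± 1.15 in FBs.

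**Figure D4:**
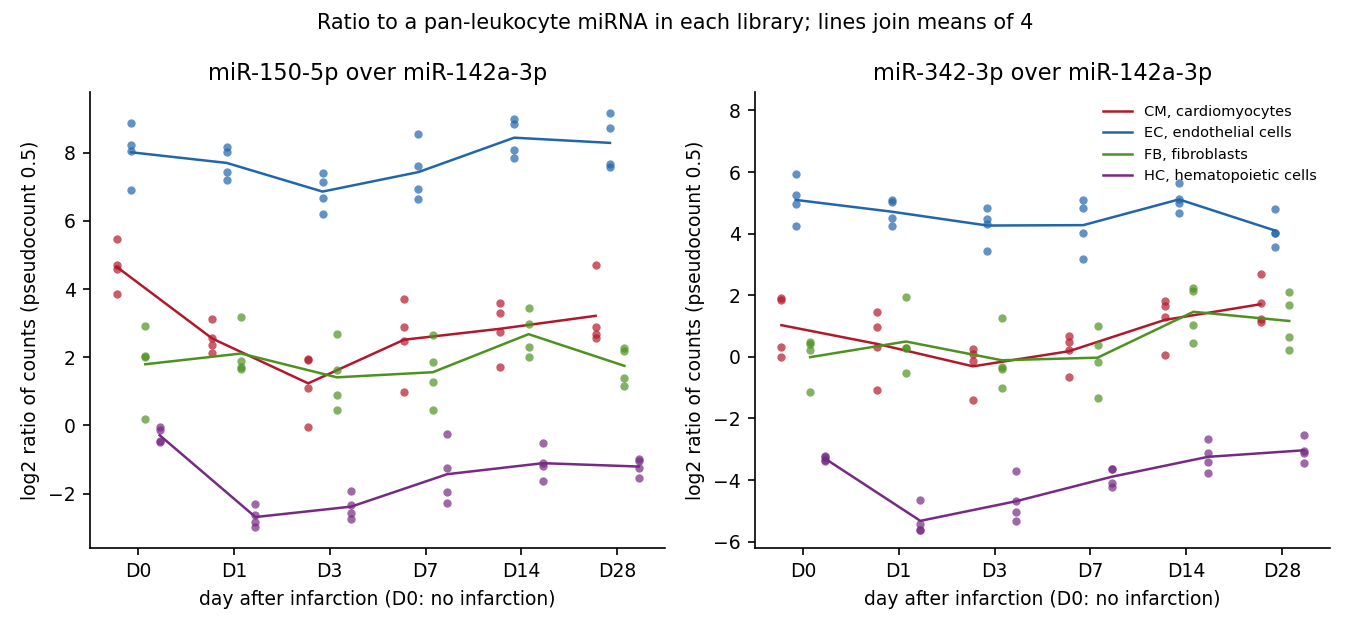
Log2 ratio of the counts of miR-150-5p (left) and miR-342-3p (right) to those of miR-142a-3p in the same library, with a pseudocount of 0.5, by day and cell type; lines join means of 4 libraries. In HCs both drop at D1, to means of -2.69 and -5.32. At D28 miR-342-3p is at -3.03 against -3.29 at D0, and miR-150-5p at -1.20 against -0.29.

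Set against endothelial miR-126a-3p, miR-150-5p in ECs held a mean log2 ratio between -6.42 and -6.01 on all 6 days (permutation test over the days, adjusted p = 0.828), with an SD of 0.80 at D28. In HCs the same ratio went from -4.69 ± 0.69 at D0 to -2.59 ± 0.92 at D7 (n = 4 each, permutation test, adjusted p = 0.0002). Without HC D0 replicate 3 the D0 mean was -4.74 ± 0.83 (n = 3, permutation test, unadjusted p = 0.00015). For miR-342-3p it changed over the days in all 4 cell types (adjusted p of at most 0.00378), and in ECs it went from -9.26 ± 0.19 at D0 to -10.20 ± 0.64 at D28. This reference was chosen after the data were seen.

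The miRNAs did not keep one proportion to each other. The log2 ratio of miR-150-5p to miR-342-3p in CMs was 3.63 ± 0.71 at D0 and 1.51 ± 0.38 at D28 (SD, n = 4), and in FBs it was 1.80 ± 0.51 and 0.58 ± 0.33. In ECs it went up instead, from 2.92 ± 0.19 to 4.19 ± 0.45. In HCs it was 3.01 ± 0.24 at D0 and 1.83 ± 0.35 at D28, without overlap. Without HC D0 replicate 3 the D0 mean was 2.94 ± 0.24 (n = 3). A permutation test over the 6 days gave adjusted p = 0.0696 for the HCs (unadjusted 0.0696, and 0.14 without that library), and for CMs, ECs and FBs 0.00144, 0.00132 and 0.00163. At D28 the ratio lay beyond D0 without overlap in each of the 4 cell types, below it in CMs, FBs and HCs and above it in ECs. How often other pairs of miRNAs parted in this way was not counted, so the gap may be common. Each of the 4 exact permutation tests of D28 against D0 reached 0.0286, the smallest p that 4 against 4 allows, and 0.0816 after adjustment over the 20 comparisons, so none passed alone.

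The proportion of arms was compared as 5p counts over 3p counts on the log2 scale, with limma across all hairpins whose arms each averaged 10 counts or more. Both hairpins changed in ECs at D28, in opposite senses. The ratio of miR-342-5p to miR-342-3p rose by 3.01 (SE 0.52, adjusted p = 0.000355), from a mean of -4.85 ± 0.56 to -1.84 ± 1.08 (SD, n = 4), without overlap. In pooled counts miR-342-5p made up 3.69% of the 9861 counts of the hairpin's arms at D0 (95% Wilson interval 3.34% to 4.08%) and 23.1% of 974 at D28 (20.6% to 25.9%). The ratio of miR-150-5p to miR-150-3p fell by 1.53 (SE 0.39, adjusted p = 0.00456), from 8.51 ± 0.13 to 6.98 ± 0.79, and the pooled share of miR-150-3p was 0.261% of 74765 counts at D0 and 0.842% of 13059 at D28. EC D28 replicate 4 held 62 of the 110 counts of miR-150-3p and 143 of the 225 of miR-342-5p, and without it the D28 shares were 0.521% and 15.4%, and the changes in ratio -1.18 (adjusted p = 0.0129) and 2.75 (adjusted p = 0.000852). So at D28 in ECs the arm that is minor at D0 had gained on the prevailing arm in both hairpins. Of 104 arm pairs tested in ECs, 38.5% were called at D28 and 40.4% over the days, where miR-342 had adjusted p = 0.000193 and miR-150 0.00134, so shifts of arm ratio were frequent in these libraries. miR-150 had too few 3p counts to be tested when at least 50 counts per arm were asked for.

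In HCs the arm ratios were steadier. miR-342 had means between -4.46 and -3.25 and miR-150 between 7.67 and 8.45, no day was called, where 15.8%, 22.4%, 5.92%, 0% and 1.32% of 152 arm pairs were from D1 to D28, and the tests over the days gave adjusted p = 0.588 and 0.407, with 15.8% called. The D0 means without replicate 3 were -3.81 for miR-342 and 8.10 for miR-150. In FBs miR-342-5p made up 5.49% of the arm counts at D3 (4.80% to 6.28%) and 14.7% at D7 (13.4% to 16.1%), and the test over the days gave adjusted p = 0.0582, with 49.7% of 147 called. In FBs miR-150-3p had a mean below 10 counts and was left out of limma. A permutation test over the days, added later, gave adjusted p = 0.00072 there, with miR-150-3p at 11 of 10585 counts at D3 and 43 of 7823 at D0. For miR-342 in FBs it gave 0.0662. In CMs miR-150-3p had 50 counts in all 24 libraries, and the arms were not compared by limma within that cell type. The permutation test passed there for both hairpins, with adjusted p = 0.00172 for miR-150 and 0.0265 for miR-342, on 0 to 8 counts of miR-150-3p and 0 to 41 of miR-342-5p a library. Between cell types, as a mean over the days, miR-150 differed between HCs and CMs by -0.80 (adjusted p = 0.00312) and miR-342 by 0.96 (adjusted p = 0.00118), where 55.9% of 145 arm pairs were called. With a pseudocount of 5 these values became 0.89 and 0.12, so they rest on the few counts in CMs.

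**Figure D5:**
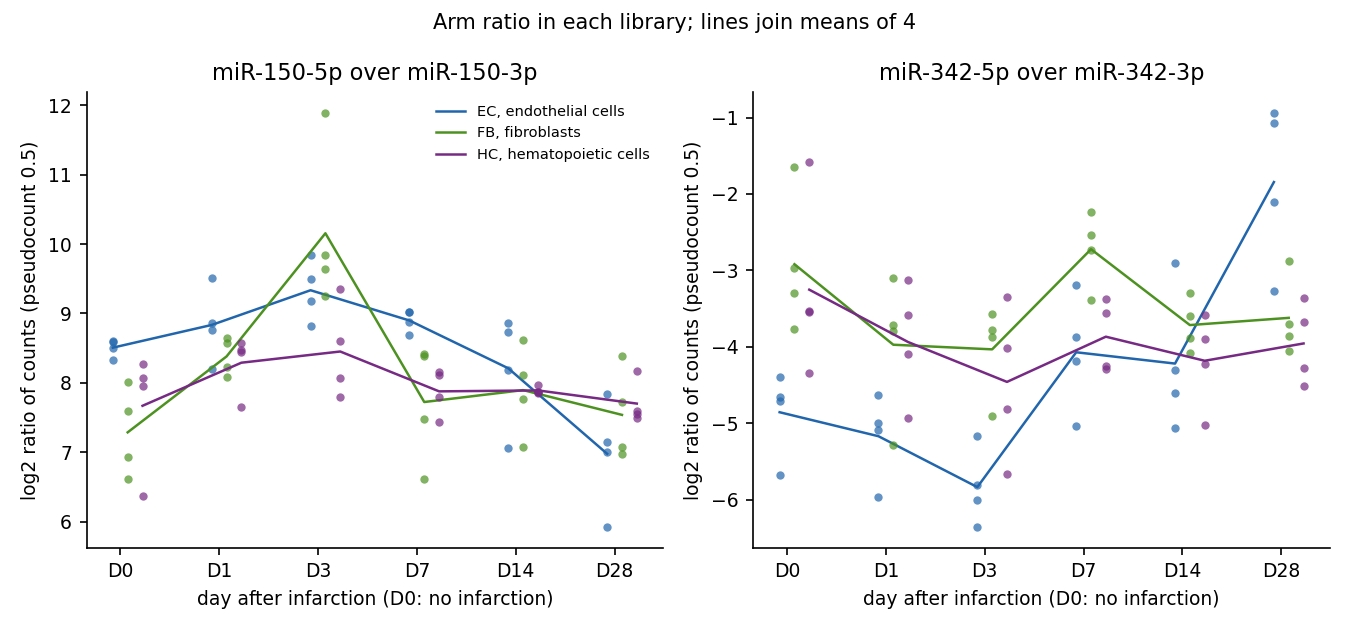
Counts of the 5p arm over those of the 3p arm, as log2 ratios, for miR-150 (left) and miR-342 (right) in each library of ECs, FBs and HCs by day, with a pseudocount of 0.5; lines join means of 4 libraries. The ECs at D28 stand at a mean of 6.98 for miR-150 and -1.84 for miR-342, against 8.51 and -4.85 at D0; the lowest HC point of miR-150 at D0 and the highest of miR-342 at D0 are the library with 18286 counts.

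Reads that matched no mature sequence were counted on hairpins, which gives a second readout of the same libraries. These reads were 8.89% to 24.7% of all counts of miR-150, and 22.5% to 76.6% of those of miR-342. On mir-150, HCs were lower at D1 (adjusted p = 0.0135) and, by a log2 fold change of -0.80, at D3 (adjusted p = 0.0421), and FBs at D7 by -1.28 (adjusted p = 0.00111), the directions of miR-150-5p in the mature counts. CMs were higher at D7 by 1.11 (adjusted p = 0.0401). On mir-342, ECs were lower at D28 by -0.87 (SE 0.22, adjusted p = 0.00186), as miR-342-3p was, and CMs higher at D3 by 0.62 (adjusted p = 0.0421). HCs were higher at D3 by 0.96 (adjusted p = 3.89e-05) and at D7 by 0.68 (adjusted p = 0.00192), where no mature arm of miR-342 was called higher. FBs were higher at D3 by 0.70 (adjusted p = 0.00668) and D14 by 0.73 (adjusted p = 0.0103), again with no mature arm called higher. At D3 the hairpin and mature counts went opposite ways, as miR-342-5p was called lower in HCs (-0.88) and in FBs (-1.12). The background of hairpins called was 61.3%, 64.2% and 54.9% in HCs at D1, D3 and D7, 60.1% in ECs at D28, 43.2%, 43.6% and 20.6% in FBs at D3, D7 and D14, and 56.8% and 67.8% in CMs at D3 and D7.

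Whether HCs changed by another amount than the other cell types was tested as an interaction, the change in HCs minus the mean change in CMs, ECs and FBs. Over the 5 days the difference passed for miR-150-5p (adjusted p = 0.0181), miR-150-3p (adjusted p = 2.06e-05) and miR-342-3p (adjusted p = 4.19e-05) but not miR-342-5p (adjusted p = 0.346), where 40.9% of miRNAs passed. At D1, with 26.8% called, the change in HCs was lower, by -1.02 on the log2 scale for miR-150-5p (SE 0.39, adjusted p = 0.0376) and by -1.30 for miR-342-3p (SE 0.36, adjusted p = 0.00461). At D3, with 33.7% called, it was lower, by -0.91, for miR-342-3p (adjusted p = 0.0413), and at D7, with 19.5%, higher by 2.27 for miR-150-3p (adjusted p = 0.00356). Both miR-150-3p results take in CMs, where this arm was too low to be tested alone. It had 1 count over the 4 CM libraries of D7 and 5 over those of D0. In HCs themselves miR-150-3p moved by 0.17 at D7 (edgeR, adjusted p = 0.704), against -0.68 in ECs and -1.78 in FBs. The size of 2.27 thus rests in part on these few CM counts. At D14 and D28, with 5.48% and 1.97% called, none of the 4 passed. The number of single-day calls was 1 to 5 when 1 library was left out, against 4 with all, and left the range of 1.5 times in 47 of 96 such fits. The call of miR-150-5p at D1 was lost in 47 of these fits and that of miR-342-3p at D3 in 51, both among them without HC D0 replicate 3 (adjusted p = 0.101 and 0.0719), while that of miR-342-3p at D1 was lost in 5 and that of miR-150-3p at D7 in 0. The cell types of a day share animals, and with a replicate block miR-150-5p at D1 (adjusted p = 0.052) and miR-342-3p at D3 (adjusted p = 0.0596) did not pass. Over the 5 days, 2 rather than 3 arms passed without HC D0 replicate 3.

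Over the 24 group means the pattern of miR-150-5p was most like that of miR-342-3p, with a Pearson correlation of log2 CPM of 0.91 among 299 miRNAs, followed by miR-146a-5p at 0.82 and miR-1249-3p at 0.81. For miR-342-3p, miR-150-5p was followed by miR-10a-3p at 0.87 and miR-146a-5p at 0.86. These points share the 4 cell types and the libraries of both miRNAs, and the likeness is mostly between cell types. Within the 24 HC libraries the 2 were less alike, at 0.58, which placed miR-342-3p at rank 13 for miR-150-5p and miR-150-5p at rank 104 for miR-342-3p. There miR-155-5p (0.75), miR-3535 (0.71) and let-7f-5p (0.64) led for miR-150-5p, and miR-329-3p (0.94), miR-186-5p (0.89) and miR-382-5p (0.87) for miR-342-3p. Without HC D0 replicate 3 the leaders were miR-141-3p (0.87), miR-200b-3p (0.78) and miR-3535 (0.77), and miR-329-3p (0.93), miR-455-5p (0.89) and miR-186-5p (0.88).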

How the data were processed

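Per the labels, small RNA libraries were made with a NEBNext kit by ligation to 5′-phosphorylated RNA. The authors trimmed reads, dropped those under 18 nt and aligned them with the nf-core smrnaseq pipeline to miRBase 21 mature sequences, then to hairpins, and deposited whole-number counts per mature miRNA and per hairpin. Ligation favours some sequences, so levels of different miRNAs are not exact. Here 1 sample's counts are 1 library, and CPM is counts per 1000000 mature counts. Tests used edgeR 4.0.16 (TMM, filterByExpr, quasi-likelihood), limma 3.58.1 on log2 arm ratios (pseudocount 0.5) and two-sided exact permutation tests, with 100000 permutations for tests over the days (scipy 1.17.1), each with Benjamini-Hochberg adjustment. DESeq2 1.42.0, library-size scaling, no filter, a replicate block and left-out libraries were alternatives. Scripts were tested on simulated data. In 2 of 96 libraries hairpin alignments exceeded the reads left over, so a read can count there more than once. Members, lists and tests were chosen with earlier results of these data known, and named miRNAs are the members, the marker lists and those most alike by correlation. Locus positions are from GENCODE vM21.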

Additional observations from a re-analysis of the deposited data

Results flagged for a closer look

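Single libraries stood apart from the other 3 of their group by a Dixon gap test in 10 of 96 groups of CPM values (10.4%) and 10 of 120 groups of log2 ratios (8.33%), where chance alone gives about 1 in 20. For miR-150-5p these were HC D7 replicate 1 at 8574 CPM against 2345 to 2652, HC D0 replicate 1 at 4024 against 2242 to 2425 and CM D0 replicate 1 at 73.6 against 13.7 to 17.6. For miR-150-3p they were EC D14 replicate 4 at 33.9 against 5.35 to 8.89, EC D7 replicate 4 at 7.28 against 4.29 to 4.74, and in CMs D3 replicate 4 at 0.511 against 0.142 to 0.185 and D7 replicate 2 at 0.0791 against 0. For miR-342-5p they were FB D0 replicate 2 at 10.8 against 4.22 to 5.21 and FB D14 replicate 1 at 4.94 against 3.59 to 3.76, and for miR-342-3p EC D0 replicate 1 at 349 against 301 to 303.

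Among the log2 ratios, miR-150-5p over miR-342-3p was 1.15 in HC D3 replicate 4 against 2.59 to 2.76. miR-150-5p over miR-142a-3p was 4.72 in CM D28 replicate 1 against 2.57 to 2.90 and 3.19 in FB D1 replicate 2 against 1.66 to 1.89, and miR-342-3p over miR-142a-3p was -1.16 in FB D0 replicate 3 against 0.24 to 0.47. The arm ratio of miR-150 was 9.42 in CM D1 replicate 3 against 7.77 to 8.04. In HCs it was 6.38 in D0 replicate 3 against 7.95 to 8.27, 7.66 in D1 replicate 1 against 8.45 to 8.57, 7.97 in D14 replicate 2 against 7.86 to 7.87 and 8.17 in D28 replicate 4 against 7.50 to 7.59. The arm ratio of miR-342 was -8.63 in CM D3 replicate 1 against -5.78 to -5.69.

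Changes against D0 in HCs differed from the mean change of the other cell types by the edgeR interaction test for miR-150-5p at D1 (-1.02, adjusted p = 0.0376), miR-342-3p at D1 (-1.30, adjusted p = 0.00461) and D3 (-0.91, adjusted p = 0.0413) and miR-150-3p at D7 (2.27, adjusted p = 0.00356). With a replicate block the first and the third of these did not pass (adjusted p = 0.052 and 0.0596). Over the 5 days together the adjusted p was 0.0181 for miR-150-5p, 2.06e-05 for miR-150-3p and 4.19e-05 for miR-342-3p. The values of miR-150-3p take in CMs, where it had 1 count over the 4 libraries of D7 and 5 over those of D0.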

How the results depend on the processing

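Counts below are of arm and day pairs called against D0 unless another quantity is named. On library size alone CMs had 10 in place of 4 and HCs 3 in place of 7, and the number of arms changed over the 6 days in CMs was 3 in place of 0, as it was with DESeq2 and with no filter on low counts. miR-150-5p then reversed in CMs to 1.31 at D3 and 2.13 at D14, and miR-342-5p to 2.15 at D7. On library size the log2 difference between HCs and ECs was -0.0097 for miR-150-5p, reversed to 0.43 for miR-150-3p and was 0.77 for miR-342-3p, which was 0.24 with DESeq2 and 0.50 with no filter, and 1 arm was at least 1 log2 unit higher in HCs than in each other cell type. HCs had 3 pairs with DESeq2 and without the fourth library of 3 groups, and ECs 6 in place of 3 when only the 2 days compared were fitted. Interaction calls numbered 1 with DESeq2, 2 on library size, 2 with no filter and 1 without the fourth libraries, in place of 4; DESeq2 was not run for the interaction over all days.

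For arm ratios, asking for 50 counts per arm left 1 of 2 calls in ECs both at single days and over the days. FBs had 1 single-day call without the fourth libraries, and 1 over the days then, with a pseudocount of 5 and with 50 counts, in place of 0. With a pseudocount of 5 the HC to CM difference reversed to 0.89 for miR-150 and was 0.12 for miR-342, and the HC to FB difference of miR-342 passed at -0.48. Without the fourth libraries the HC to EC difference of miR-150 passed at -0.57. Hairpin calls on library size were 8 in CMs, 0 in ECs and 7 in HCs, and 2 in ECs without the farthest libraries. The cause of these shifts was not tested.

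Leaving out 1 library in turn gave 2 to 6 pairs in CMs (2 without D0 replicate 3), 3 to 5 in ECs (5 without D14 replicate 4) and 3 to 7 in HCs, 0 to 2 arms over the days in CMs (2 without D0 replicate 1, 1 without D0 replicate 4), and 1 to 5 interaction calls. The HC to EC difference ran from -0.35 to -0.10 for miR-150-3p and from 0.30 to 0.54 for miR-342-5p, and for the arm ratio of miR-150 from -0.54 to -0.41, passing without CM D0 replicate 1, EC D14 or D28 replicate 4 or HC D3 replicate 1. Arm ratio calls at single days ran from 0 to 1 in FBs (1 without D0 replicate 4 or D1 replicate 2) and in HCs (1 without D3 replicate 3). Over the days they ran from 0 to 1 in FBs, with 1 without D0 replicate 4, D1 replicate 1 or 2, or replicate 2 of D7 or D28. Among all cell types and days, the ratio of miR-342-3p to miR-142a-3p lay apart from D0 in 3 to 5 comparisons, the latter without EC D0 replicate 1.

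Whether equal replicate numbers mark the same animals is not given in the sources used here. Deviations of same-numbered libraries of 2 cell types on a day had a median correlation of 0.0682, with 61 of 144 above 0.1, and those of different numbers -0.0253, with 119 of 432 above 0.1, so a weak pairing is possible. With the replicate block the interaction calls were 2 in place of 4, with miR-150-5p at D1 (adjusted p = 0.052) and miR-342-3p at D3 (adjusted p = 0.0596) lost, and no other call changed.

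Depth limits the minor arms most: miR-150-3p had 0 to 8 counts in a CM library and 0 to 29 in an FB library, and HC D0 replicate 3 held 0 counts of miR-150-3p and 1 of miR-342-5p.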
